A study of Homo sapiens with 2 samples.

Results

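The miR-23/27/24 genes of the human genome form a pair of paralogous clusters, the a cluster with the hairpins hsa-mir-23a, hsa-mir-27a and hsa-mir-24-2 and the b cluster with hsa-mir-23b, hsa-mir-27b and hsa-mir-24-1. The hairpins were chosen by their names, with earlier results of these data known. They make up 6 of the 1087 annotated hairpins in the deposited table. Both arms of every hairpin were listed, in 12 rows that carry 11 mature names, since miR-24-3p is listed once under each mir-24 hairpin. Small RNAs were sequenced in 2 libraries of stem-enriched breast cancer cells, 1 per cell line.

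A microRNA (miRNA) is cut from a hairpin precursor, and usually 1 arm, the guide, is loaded into an Argonaute protein while the other, the passenger, is mostly lost. The guide pairs with messenger RNAs through its seed, bases 2 to 8, and represses them. In these clusters the 3p arms are the known guides. Each cluster is transcribed as a single precursor RNA, so that its hairpins start from the same transcript. miR-27 is known to repress the adipogenic receptor PPARG, the oestrogen-metabolising enzyme CYP1B1 and, in breast cancer cells, the repressor ZBTB10, and miR-24 cell-cycle genes such as MYC and E2F2.

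The guide arms are shown first, because the a and b members of each pair carry the same seed and differ near the 3' end. The sequences are RefSeq's for GRCh38.p14, 5' to 3', with the seed in capitals.
miR-23a-3p: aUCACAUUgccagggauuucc
miR-23b-3p: aUCACAUUgccagggauuaccac
miR-27a-3p: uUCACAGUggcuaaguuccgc
miR-27b-3p: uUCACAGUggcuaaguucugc
miR-24-3p: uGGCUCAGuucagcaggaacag
Counted from 1 at the 5' end, miR-23a-3p and miR-23b-3p differ by U19A over the 21 bases both have, and miR-27a-3p and miR-27b-3p differ by C19U. The first 18 bases of each pair are the same, so a tag cut short before base 19 matches both members. miR-24-3p is the same molecule from either cluster. The 5p arms tell the clusters apart more clearly.
miR-23a-5p: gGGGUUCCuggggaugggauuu
miR-23b-5p: uGGGUUCCuggcaugcugauuu
miR-27a-5p: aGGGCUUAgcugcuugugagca
miR-27b-5p: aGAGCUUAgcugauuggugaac
miR-24-2-5p: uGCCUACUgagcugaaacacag
miR-24-1-5p: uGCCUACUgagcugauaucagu
Of 22 bases compared without gaps, 15 were identical between the miR-23 5p arms, 14 between the miR-27 5p arms and 16 between the miR-24 5p arms. The miR-27 5p arms differ in the seed itself by G3A, whereas the other pairs share the seed.

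The a cluster spans 373 bp on the minus strand of chromosome 19 (GRCh38, 13836287 to 13836659), in the order MIR23A, MIR27A, MIR24-2. In GENCODE 29 all 3 hairpins overlap the exon of AC020916.1, a non-coding host transcript of the same strand. The b cluster spans 881 bp on the plus strand of chromosome 9 (95085208 to 95086088). MIR23B and MIR27B lie in an intron of C9orf3, now called AOPEP, an aminopeptidase gene of the same strand, and MIR24-1 overlaps an exon of 1 of its transcripts, C9orf3-215. The authors' genome build is not given in the sources used here, and no coordinates of the authors were used.

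MDA-MB-468 is known as triple-negative: its label gives ER-, PR- and HER2-, for the oestrogen and progesterone receptors and the growth factor receptor HER2. BT474 is labelled ER+. Cells of both lines were sorted with the surface markers CD24 and CD44. Which fraction of the sort was kept is not given in the sources used here, and unsorted cells were not analysed here. MDA-MB-468 was grown in DMEM and BT474 in RPMI-1640, both with fetal bovine serum, penicillin and streptomycin, so that line and medium cannot be told apart. The sort used the same markers in both lines, and any difference in the fraction kept could not be told apart from line either. Annotated miRNAs summed to 11448022 counts in MDA-MB-468 cells and 5133057 in BT474 cells, and levels are given relative to these totals as counts-per-million (CPM). With 1 library per line there is no replicate and no test: each error is an exact 95% interval that covers counting error only, and says nothing of the spread between cultures. In bulk samples like these, fewer expressing cells and less RNA per cell cannot be told apart. Epithelial markers of the miR-200 family, miR-203a and miR-205 were listed in both libraries, 7 of 7, and summed to 8.73% of MDA-MB-468 and 6.15% of BT474 counts. The 6 blood cell markers summed to 40.6 CPM in MDA-MB-468 cells and 52.8 CPM in BT474, and the 5 markers of stroma and endothelium to 580 CPM in MDA-MB-468 cells and 837 CPM in BT474. These sums mix directions. miR-200a-3p, miR-200b-3p, miR-429 and miR-205-5p had higher CPM in MDA-MB-468, and miR-200c-3p, miR-141-3p and miR-203a-3p in BT474. Of the stromal and endothelial markers, miR-143-3p and miR-145-5p were higher in MDA-MB-468, and miR-199a-3p, miR-214-3p and miR-126-3p in BT474. In MDA-MB-468 miR-144-3p and miR-214-3p were not listed. Unequal ligation of different sequences is a known property of such libraries, so that a ratio between different arms within a library is a ratio of counts and need not be one of molecules.

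The first question was how the clusters' guide arms compare between stem-enriched cells of the triple-negative line and those of the ER-positive line. Of the 5 guide arms, 3 were higher in MDA-MB-468 by just over 2-fold relative to the annotated totals, miR-23a-3p, miR-23b-3p and miR-27b-3p. With another scaling, upper-quartile factors, they fell under 2-fold, at log2 ratios of 0.91, 0.95 and 0.85 in that order. Relative to the annotated totals miR-27a-3p stood at about the same level in both libraries and miR-24-3p in between. The miR-23 and miR-27 guides of the b cluster had like ratios and those of the a cluster did not.

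miR-27b-3p was the most abundant member, with 314173 counts in MDA-MB-468 cells and 67466 in BT474 cells. Its level was 27443 CPM in MDA-MB-468 (Poisson interval 27348 to 27540) and 13143 CPM in BT474 (13044 to 13243). It ranked 7th among all annotated miRNAs in MDA-MB-468 cells and 13th in BT474 cells, and the log2 ratio of MDA-MB-468 over BT474 was 1.06 (exact conditional interval 1.05 to 1.07). Its paralogue miR-27a-3p had 41785 counts in MDA-MB-468 cells and 19606 in BT474 cells, or 3650 CPM in MDA-MB-468 (3615 to 3685) and 3820 CPM in BT474 (3766 to 3873). The log2 ratio of miR-27a-3p was -0.07 (-0.09 to -0.04), under 2-fold and with a sign that turned to 0.01 when counts were summed over precursors, and it ranked 34th in MDA-MB-468 cells and 26th in BT474 cells. The libraries therefore stood apart for the b member and close together for the a member of a pair that differs by a single base.

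miR-23a-3p had 54261 counts in MDA-MB-468 cells and 11246 in BT474 cells, or 4740 CPM in MDA-MB-468 (4700 to 4780) and 2191 CPM in BT474 (2151 to 2232). Its log2 ratio was 1.11 (1.08 to 1.14). miR-23b-3p had 27389 counts in MDA-MB-468 cells and 5496 in BT474 cells, or 2392 CPM in MDA-MB-468 (2364 to 2421) and 1071 CPM in BT474 (1043 to 1099), with a log2 ratio of 1.16 (1.12 to 1.20). Here the a member was the more abundant in both libraries, and both members were higher in MDA-MB-468 by nearly the same factor.

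miR-24-3p, which both clusters encode, had 27163 counts in MDA-MB-468 cells and 7455 in BT474 cells, taken from the larger of its rows. Its level was 2373 CPM in MDA-MB-468 (2345 to 2401) and 1452 CPM in BT474 (1420 to 1486), with a log2 ratio of 0.71 (0.67 to 0.75), under 2-fold. In MDA-MB-468 the intervals of miR-24-3p and miR-23b-3p overlapped, and every other neighbour in the order of guide levels was separated beyond counting error. The order was miR-27b-3p, miR-23a-3p, miR-27a-3p, miR-23b-3p, miR-24-3p in MDA-MB-468, and miR-27b-3p, miR-27a-3p, miR-23a-3p, miR-24-3p, miR-23b-3p in BT474.

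**Figure D1:**
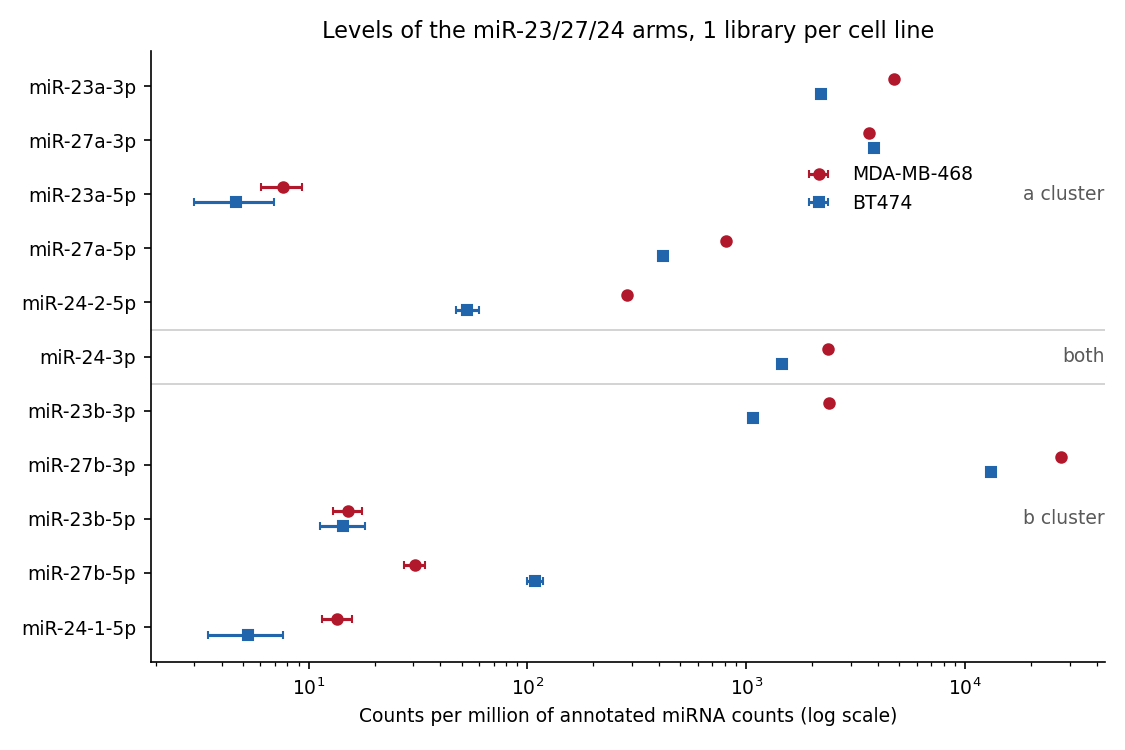
Level of each arm in CPM on a log axis, with MDA-MB-468 as red circles, BT474 as blue squares and exact Poisson intervals for counting error. miR-27b-3p is the highest at 27443 CPM in MDA-MB-468 cells and 13143 CPM in BT474 cells, and miR-27b-5p is the arm whose BT474 value lies well above its MDA-MB-468 value.

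The 5p arms covered a wider range of ratios than the guides. miR-24-2-5p, the passenger arm of the a cluster's mir-24 hairpin, had 3272 counts (286 CPM, 276 to 296) in MDA-MB-468 cells and 273 counts (53.2 CPM, 47.1 to 59.9) in BT474. It was 5.37-fold higher in MDA-MB-468, the highest ratio of the 11 names (log2 2.43, 2.25 to 2.61). Its counterpart from the b cluster, miR-24-1-5p, had 155 counts, or 13.5 CPM, in MDA-MB-468 cells and 27 counts, or 5.26 CPM, in BT474. The log2 ratio of miR-24-1-5p was 1.36, and its interval of 0.77 to 2.01 reaches under 2-fold. Both mir-24 passenger arms were thus higher in MDA-MB-468 by more than miR-24-3p itself.

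The mir-27 passenger arms had ratios of opposite sign. miR-27a-5p had 9249 counts (808 CPM, 792 to 825) in MDA-MB-468 cells and 2140 counts (417 CPM, 399 to 435) in BT474. Its log2 ratio was 0.95 (0.89 to 1.02), or 1.94-fold, just under the 2-fold threshold. miR-27b-5p had 349 counts (30.5 CPM, 27.4 to 33.9) in MDA-MB-468 cells and 556 counts (108 CPM, 99.5 to 118) in BT474. It was the only member lower in MDA-MB-468 by 2-fold or more, with a log2 ratio of -1.83 (-2.03 to -1.63). BT474 was therefore the higher library for miR-27b-5p and the lower for miR-27b-3p of the same hairpin.

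The mir-23 passenger arms were scarce. miR-23a-5p had 87 counts, or 7.60 CPM, in MDA-MB-468 cells and 24 counts, or 4.68 CPM, in BT474, with a log2 ratio of 0.70 and an interval of 0.03 to 1.42. miR-23b-5p had 173 counts, or 15.1 CPM, in MDA-MB-468 cells and 74 counts, or 14.4 CPM, in BT474, with a log2 ratio of 0.07 and an interval of -0.33 to 0.48, so that no difference was detectable at this depth, and its sign depended on the scaling (-0.14 to 0.14).

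All 11 names had at least 10 counts in a library and were compared, as were 690 annotated miRNAs in all. A miRNA was called where its ratio reached 2-fold and its interval excluded a ratio of 1. Of the members, 5 were called higher in MDA-MB-468, against 32.9% of all miRNAs compared, 1 was called lower, against 28.3%, and 5 were not called, so that 6 of 11 were called in either direction, against 61.2%. Of the 690, 554 were listed in both libraries, as all 11 members were. The rest had a blank in 1 library that stood at 3 counts, and those listed in BT474 alone were always called lower. Values over all 690 are therefore not like for like with the members, and shares over the 554 were not computed. The median log2 ratio was 0.95 over the members and 0.30 over all 690. The balance of these calls depends on the scaling: with upper-quartile factors, or without the 10 most abundant miRNAs in the total, 196 of all miRNAs were called higher and 222 lower, and of the members 2 higher (miR-24-2-5p and miR-24-1-5p) and 1 lower (miR-27b-5p). The calls of miR-24-2-5p, miR-24-1-5p and miR-27b-5p were kept under all 7 alternative scalings or ways of summing. Those of miR-23a-3p and miR-27b-3p were lost under 3 of 7 and that of miR-23b-3p under 2 of 7, while miR-27a-5p gained a call under 2 of 7. For 1 of the 7, the authors' normalized values, there was no interval and calls rested on the ratio alone. There miR-24-1-5p had 9 units in MDA-MB-468 and 3 in BT474.

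**Figure D2:**
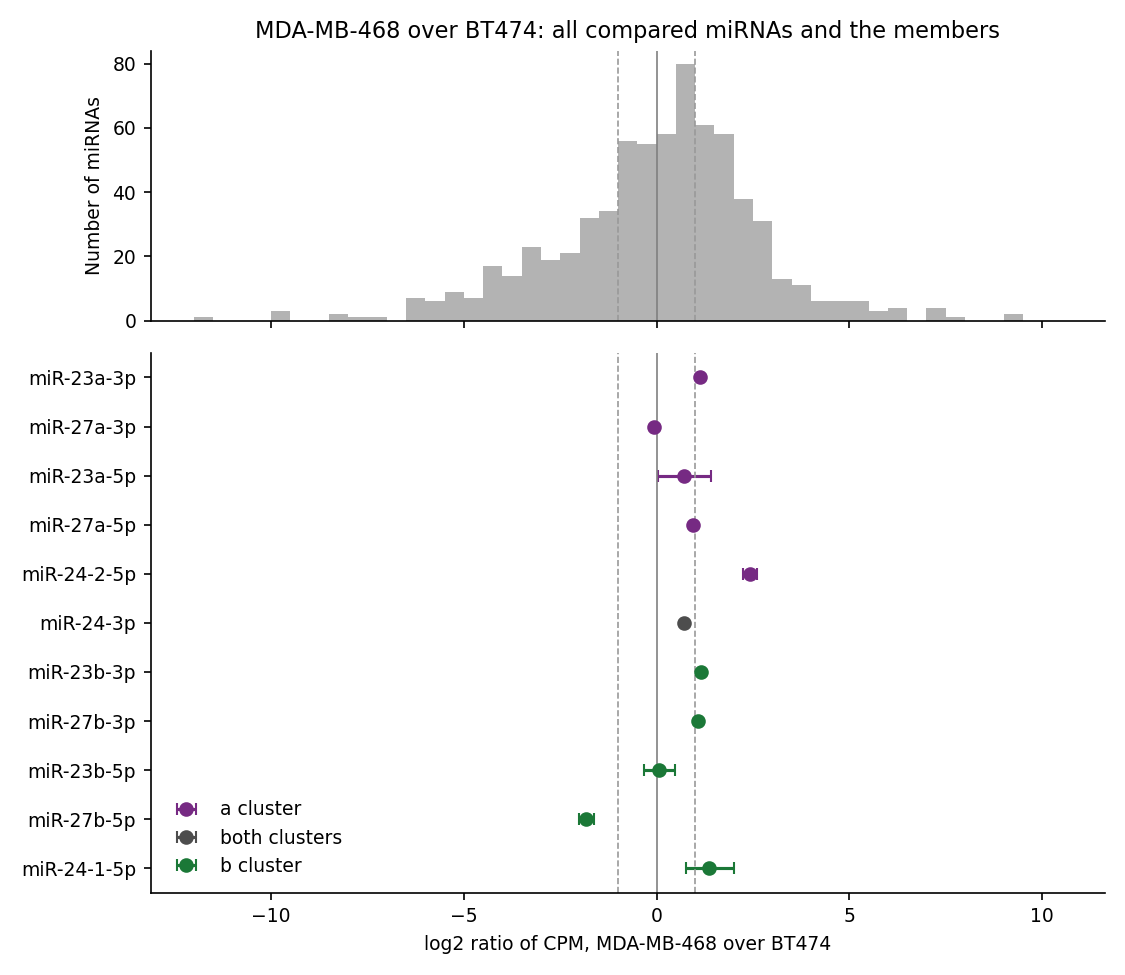
Upper panel, number of the 690 compared miRNAs in each 0.5-wide bin of the log2 ratio of CPM, MDA-MB-468 over BT474. Lower panel, the same ratio for each member with its exact conditional interval, dashed lines marking 2-fold; most members lie between 0 and 1.5, miR-24-2-5p is at 2.43 and miR-27b-5p at -1.83.

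The a and b clusters were then contrasted. Summed over the 5 names that belong to 1 cluster alone, the a cluster had 108654 counts in MDA-MB-468 cells and 33289 in BT474 cells, or 9491 CPM in MDA-MB-468 cells and 6485 CPM in BT474. Its log2 ratio was 0.55 (0.53 to 0.57), under 2-fold. The b cluster had 342239 counts in MDA-MB-468 cells and 73619 in BT474 cells, or 29895 CPM in MDA-MB-468 cells and 14342 CPM in BT474, and its log2 ratio was 1.06 (1.05 to 1.07). That call for the b cluster was lost under 3 scalings, the lowest value being 0.85. The b sum was mostly miR-27b-3p, at 91.8% in MDA-MB-468 cells and 91.6% in BT474. The a sum was led by different miRNAs in the 2 lines: miR-23a-3p made up 49.9% of it in MDA-MB-468 cells and 33.8% in BT474, and miR-27a-3p 38.5% in MDA-MB-468 cells and 58.9% in BT474. Arm by arm, 2 of the 5 a names were called higher and none lower, against 3 higher and 1 lower of the 5 b names. Over all 690 miRNAs compared, 32.9% were called higher and 28.3% lower, which includes names listed in 1 library alone. The contrast of calls depends on the scaling, since miR-23a-3p, miR-23b-3p and miR-27b-3p were not called with upper-quartile factors. Median log2 ratios were 0.95 for the a and 1.06 for the b names.

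The share of a-cluster counts within a pair of paralogous arms does not depend on the scaling between libraries. For the miR-23 guides it was 66.5% in MDA-MB-468 (Clopper-Pearson interval 66.1 to 66.8) and 67.2% in BT474 (66.5 to 67.9), so the intervals overlapped. For the miR-27 guides it was 11.7% in MDA-MB-468 (11.6 to 11.8) and 22.5% in BT474 (22.2 to 22.8), which is a count ratio of b over a of 7.52 in MDA-MB-468 cells and 3.44 in BT474. As listed, the balance of a and b thus differed by no more than counting error between the libraries for miR-23. For miR-27 it lay further towards b in MDA-MB-468. Guide tags cut short before the differing base match both members of a pair. How such tags were counted is not given in the sources used here. They may stand in both rows, which would affect the guide shares and ratios by an unknown amount that the intervals do not cover.

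The passenger arms gave another picture. For the miR-27 5p arms the a share was 96.4% in MDA-MB-468 (95.97 to 96.73) and 79.4% in BT474 (77.8 to 80.9), a higher a share in MDA-MB-468 where the miR-27 guides had a lower one. For the miR-24 5p arms it was 95.5% in MDA-MB-468 (94.7 to 96.1) and 91.0% in BT474 (87.2 to 94.0). For the miR-23 5p arms it was 33.5% (27.8 to 39.6) in MDA-MB-468 cells and 24.5% (16.4 to 34.2) in BT474, with overlapping intervals. With the miR-23 and miR-27 guides pooled, the a share was 21.9% in MDA-MB-468 cells and 29.7% in BT474, a difference of -7.77 points, and with all 5p arms pooled it was 94.9% in MDA-MB-468 cells and 78.8% in BT474, a difference of 16.1 points in the opposite direction. Which cluster had the larger share in a library, and in which library the a share was larger, therefore depended on the arm counted.

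**Figure D3:**
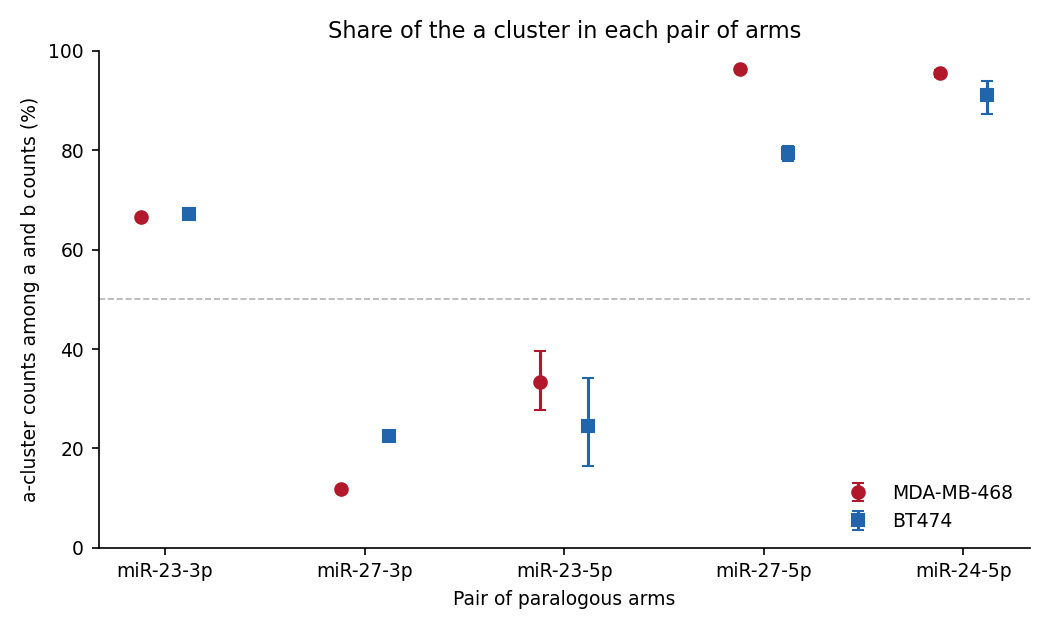
Share of a-cluster counts among the a and b counts of each pair of paralogous arms, in percent, with MDA-MB-468 as red circles, BT474 as blue squares and exact Clopper-Pearson intervals; the dashed line marks equal counts. The libraries coincide for miR-23-3p at 66.5% in MDA-MB-468 cells and 67.2% in BT474, and stand apart in opposite directions for miR-27-3p (11.7% in MDA-MB-468, 22.5% in BT474) and miR-27-5p (96.4% in MDA-MB-468, 79.4% in BT474).

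Ratios between hairpins of the same cluster also do not depend on scaling. They rearrange the counts used for the shares above, so they restate that contrast within each cluster and are not separate evidence for it. In the a cluster there were 0.770 counts of miR-27a-3p for each count of miR-23a-3p in MDA-MB-468 (0.760 to 0.780) and 1.74 in BT474 (1.70 to 1.78), a log2 difference of -1.18. In the b cluster there were 11.5 counts of miR-27b-3p for each of miR-23b-3p in MDA-MB-468 (11.3 to 11.6) and 12.3 in BT474 (11.9 to 12.6), a log2 difference of -0.10. miR-24-2-5p per count of miR-23a-3p was 0.0603 in MDA-MB-468 (0.0582 to 0.0625) and 0.0243 in BT474 (0.0215 to 0.0274), whereas miR-24-1-5p per count of miR-23b-3p was 0.00566 (0.00480 to 0.00663) in MDA-MB-468 cells and 0.00491 (0.00323 to 0.00716) in BT474, with overlapping intervals. In the a cluster, then, miR-27a-3p stood lower and miR-24-2-5p higher relative to miR-23a-3p in MDA-MB-468 than in BT474.

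The spread of guides within a cluster was compared with that in other polycistronic clusters. The log2 ratios of guides lay 1.18 apart in the miR-23a/27a pair and 0.10 apart in the miR-23b/27b pair. They lay 1.24 apart over 3 guides in the miR-106b/93/25 cluster, 1.30 apart over 3 in the cluster of miR-183 and 1.65 apart over 6 in miR-17/92a. In the last the lowest was miR-92a-3p, at 1.41, which is also listed under another hairpin, and the 4 guides listed under 1 hairpin lay 0.65 apart. In the miR-106b/93/25 cluster the highest was miR-106b-5p, which was taken as the guide. It was the minor arm by counts, at 24.6% of the 5p and 3p counts of hsa-mir-106b in MDA-MB-468 cells and 17.2% in BT474. With miR-106b-3p in its place the spread would be narrower than that of the miR-23a/27a pair, so their order depends on this choice. The spreads of all these clusters come from different numbers of arms and are given as a description.

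The balance of the arms within each hairpin was compared next. The hairpins of miR-27 are shown because their arm ratios differed between the libraries in opposite directions, with both mature arms in capitals, 5p first (RefSeq, GRCh38.p14, 5' to 3' on the transcribed strand).
MIR27A: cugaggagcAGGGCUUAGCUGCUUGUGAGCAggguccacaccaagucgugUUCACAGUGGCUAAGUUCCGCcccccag
MIR27B: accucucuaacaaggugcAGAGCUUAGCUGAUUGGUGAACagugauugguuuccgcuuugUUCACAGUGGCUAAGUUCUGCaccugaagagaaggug
For hsa-mir-27a, 5p counts were 18.1% of 5p and 3p counts in MDA-MB-468 (17.8 to 18.5) and 9.84% in BT474 (9.45 to 10.2). For hsa-mir-27b they were 0.111% in MDA-MB-468 (0.0996 to 0.123) and 0.817% in BT474 (0.751 to 0.888). The 5p to 3p ratio was thus 2.03-fold higher in MDA-MB-468 for mir-27a, and 7.42-fold higher in BT474 for mir-27b.

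For hsa-mir-23a, 5p counts were 0.160% in MDA-MB-468 (0.128 to 0.197) and 0.213% in BT474 (0.136 to 0.317), with overlapping intervals. For hsa-mir-23b they were 0.628% in MDA-MB-468 (0.538 to 0.728) and 1.33% in BT474 (1.04 to 1.67), a 2.13-fold lower 5p to 3p ratio in MDA-MB-468. Both intronic b hairpins had the lower 5p share in MDA-MB-468, and of the a hairpins mir-27a had the higher.

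Across hairpins with at least 100 counts in each library, the 5p to 3p ratio differed by 2-fold or more, with separate intervals, in 33.0% of the 94 that had counts in both arms of both libraries. Of the members 3 of 4 met it, and the size of the mir-27b change ranked 6th of 94, that of mir-23b 32nd, of mir-27a 37th and of mir-23a 73rd. None of the 4 moved by 20 percentage points, which 3.23% of 124 hairpins did. The 2-fold criterion on the arm ratio was chosen after the members' values were seen.

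**Figure D4:**
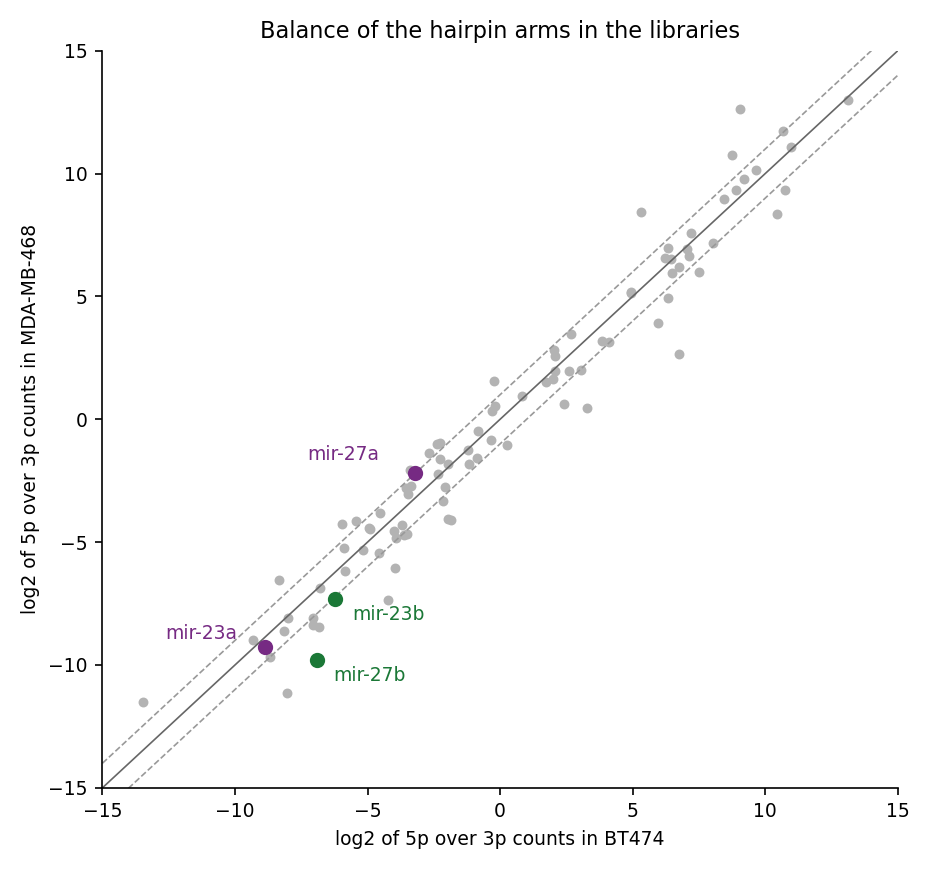
Log2 ratio of 5p over 3p counts for 94 hairpins, MDA-MB-468 on the vertical and BT474 on the horizontal axis, with the line of equality and dashed lines at 2-fold; grey points are other hairpins, purple the a cluster and green the b cluster. mir-27b lies furthest of the members from equality, below it (log2 -9.81 in MDA-MB-468 cells and -6.92 in BT474), and mir-27a lies just above the upper dashed line (-2.18 in MDA-MB-468 cells and -3.20 in BT474).

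For mir-24 the arms cannot be paired in this way, because miR-24-3p may come from either hairpin. The hairpins are shown to mark how much they share around the 3p arm, with both arms in capitals.
MIR24-2: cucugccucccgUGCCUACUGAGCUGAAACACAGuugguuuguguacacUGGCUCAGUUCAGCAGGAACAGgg
MIR24-1: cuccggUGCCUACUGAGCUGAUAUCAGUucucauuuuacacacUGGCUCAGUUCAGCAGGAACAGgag
They have the 22 bases of miR-24-3p in common, the 4 bases before it and 1 base after it. The row of hsa-mir-24-2 held 26880 counts of miR-24-3p in MDA-MB-468 cells and 7414 in BT474 cells, and the row of hsa-mir-24-1 held 27163 in MDA-MB-468 cells and 7455 in BT474. The rows differed by 283 counts in MDA-MB-468 cells and 41 in BT474, which is 1.04% of the mir-24-1 row in MDA-MB-468 cells and 0.550% in BT474. If every one of these tags came from mir-24-2, its 5p share would be 10.9% in MDA-MB-468 cells and 3.55% in BT474, and these are lower limits. The like limits for mir-24-1 were 0.567% in MDA-MB-468 cells and 0.361% in BT474.

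Since paralogues with the same seed can pair with the same targets, counts were also summed by seed. The miR-23 seed, which miR-23c on chromosome X shares, held 7135 CPM in MDA-MB-468 cells and 3264 CPM in BT474 cells, a log2 ratio of 1.13 (1.10 to 1.15). miR-23c itself contributed 29 counts in MDA-MB-468 cells and 14 in BT474 cells. The miR-27 seed held 31093 CPM in MDA-MB-468 cells and 16963 CPM in BT474 cells, a log2 ratio of 0.87 (0.86 to 0.88), with miR-27b-3p carrying most of it in both. With miR-24-3p, the 3 seeds took 4.06% of all annotated counts in MDA-MB-468 cells and 2.17% in BT474, and miR-27 was 76.6% of that in MDA-MB-468 cells and 78.2% in BT474. Relative to the annotated totals, the summed counts of each seed were higher in MDA-MB-468 by 2.19-fold for miR-23, 1.83-fold for miR-27 and 1.63-fold for miR-24. Upper-quartile factors move each log2 ratio by -0.21, which takes the miR-23 seed under 2-fold as well. The 3 seeds kept similar proportions.

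miR-128-3p, known to repress the polycomb gene BMI1, begins with 8 bases that are also in miR-27-3p, shifted by 1 base.
miR-128-3p: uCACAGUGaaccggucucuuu
It had 18423 counts, or 1609 CPM, in MDA-MB-468 cells and 9074 counts, or 1768 CPM, in BT474 cells, a log2 ratio of -0.14 (-0.17 to -0.10), close to that of miR-27a-3p.

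Hairpins near the clusters were examined as neighbours. On chromosome 19, mir-181c and mir-181d lie 38039 and 38215 bp from the a cluster on the other strand. miR-181c-3p was counted 620 times (54.2 CPM) in MDA-MB-468 cells and 38 times (7.40 CPM) in BT474 cells, a log2 ratio of 2.87 (2.40 to 3.38). miR-181d-5p was at 214 CPM in MDA-MB-468 cells and 152 CPM in BT474 cells (log2 0.50, 0.38 to 0.62), and miR-181c-5p at 4.02 CPM in MDA-MB-468 cells and 2.14 CPM in BT474, with an interval of the log2 ratio of -0.06 to 2.01. Of these neighbours miR-181c-3p alone was called.

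On chromosome 9, mir-3074 overlaps mir-24-1 on the opposite strand. miR-3074-5p had 24 counts, or 2.10 CPM, in MDA-MB-468 cells and 35 counts, or 6.82 CPM, in BT474 cells, a log2 ratio of -1.70 (-2.51 to -0.91), lower in MDA-MB-468 where miR-24-1-5p was higher. The let-7 hairpins let-7a-1, let-7f-1 and let-7d, of a family linked to differentiation, lie 906287 to 909171 bp from the b cluster. let-7d-5p, which is listed under that hairpin alone, was at 810 CPM in MDA-MB-468 cells and 3375 CPM in BT474 cells (log2 -2.06, -2.10 to -2.02), let-7d-3p was at 282 CPM in MDA-MB-468 cells and 1016 CPM in BT474 (-1.85, -1.91 to -1.78), and let-7f-1-3p at 36.3 CPM in MDA-MB-468 cells and 70.3 CPM in BT474 (-0.96, -1.16 to -0.75). The let-7d arms were thus lower in MDA-MB-468, while the b cluster's guides on the same chromosome were higher.

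The miRNAs nearest to each guide in level, by Euclidean distance of log2 CPM over the 2 libraries among 554 that were listed in both, were miR-99a-5p for miR-23a-3p (distance 0.39), miR-423-3p for miR-27a-3p (0.32), miR-320a for both miR-23b-3p (0.32) and miR-24-3p (0.20), and miR-30d-5p for miR-27b-3p (0.65). miR-24-3p was the next nearest to miR-23b-3p (0.44), and no other member was among the 3 nearest of any guide. With 2 libraries this likeness describes level and ratio alone.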

How the data were processed

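Small-RNA libraries of MDA-MB-468 and BT474 stem-enriched cells (1 each) were analysed. The header MAD-MB-468 was taken for MDA-MB-468, since it is like no other title. Raw tag counts were deposited, per the file headers for all isoforms of a mature miRNA on each precursor, and a normalized version by the authors whose values are scores rounded to whole numbers, with a scaling not described in the headers. Per the submitters' processing notes Novoalign 2.07.11 was used; no build, annotation release or counter is given there. The smallest listed count was 2 in each library, and blanks are values not listed.

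The table held 2121 rows, 1737 of them annotated; 384 predicted candidates were left out. The largest count of a name over its precursors was kept, giving 1623 names. Counts were scaled to CPM of these totals (11448022 and 5133057; 100 counts are 8.74 CPM in the MDA-MB-468 and 19.5 CPM in the BT474 library). Ratios of MDA-MB-468 over BT474 had exact conditional binomial intervals, shares Clopper-Pearson intervals and CPM values Poisson intervals, at 95%. In ratios over all miRNAs a blank stood at 3 counts. Reads amplified by PCR and lacking molecular identifiers are not independent molecules. Calls needed at least 10 counts in a library, 2-fold and an interval excluding 1. Code was tested on simulated data. Alternative factors came from edgeR 4.0.16 (TMM, upper quartile) and DESeq2 1.42.0 over the 690 miRNAs compared, in R 4.3.3; intervals used scipy 1.17.1 in Python 3.11.15. Sequences are RefSeq's (GRCh38.p14), matched by name, 11 of 11 members; annotation is GENCODE 29. Named miRNAs are the members, those with a member's seed, miR-128-3p, neighbouring hairpins, guides of 3 like clusters and the 3 miRNAs nearest in level to each guide. Members and lists were chosen with earlier results of these data known.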

Additional observations from a re-analysis of the deposited data

How the results depend on the processing

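Scaling moved all log2 ratios together, by -0.21 when the 10 most abundant miRNAs (miR-27b-3p among them) were left out of the total or with upper-quartile factors, by -0.12 with DESeq2's size factors and by -0.03 with TMM. The log2 ratio of the summed a cluster was 0.34 in both of the first settings, 0.43 with DESeq2's size factors, 0.52 with TMM, 0.62 with counts summed over precursors and 0.62 with the authors' normalized values; that of the summed b cluster was 0.85, 0.85 and 0.94 in the first 3, under 2-fold, because the shift crosses the threshold. miR-27a-3p ranged from -0.27 to 0.01. In the first 2 settings 196 miRNAs were called higher and 222 lower, against 227 and 195 with annotated totals. With at least 50 counts, 146 miRNAs were called higher and 103 lower. Fewer were compared, and since their number is not given here, these counts cannot be read as shares. The a share of the guides (21.9% in MDA-MB-468 and 29.7% in BT474) became 94.9% in MDA-MB-468 and 78.8% in BT474 with the 5p arms alone, and the difference of -7.77 points turned to 16.1; the authors' normalized values kept the guide shares within their intervals. In the low 5p arms 1 authors' unit stood for more counts than in the guides, 17.4 counts for miR-23a-5p against 13.02 for miR-23a-3p in MDA-MB-468, and the 5p share of mir-27b there became 0.0986%. No paired analysis was possible because each line has 1 library. Depth limits the miR-23 5p arms and miR-24-1-5p, with 24 to 74 counts in BT474.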
